A study of Mus musculus with 12 samples.

Results

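A set of 9 genes of the hypothalamic-pituitary-adrenal axis was examined: Crhr1, Crhr2, Crhbp, Avpr1b, Nr3c1, Nr3c2, Hsd11b1, Hsd11b2 and Ucn2. Every probe whose symbol in the array's annotation table was one of these names was taken, which gave 13 probes of 7 genes among 46147 probes in all. Nr3c2 and Ucn2 had no such probe and were not analysed here. RNA came from whole pituitaries, and each group was 1 combination of genotype and treatment. Knockout (KO) mice carried a knockout of Crhr1, the gene of the main CRH receptor, and wild-type (WT) mice did not. The 3 treatments were control (mice killed 1 to 3 h after the injections), 1 h and 3 h, these times being counted from the beginning of a 30 min restraint. Mice of all 6 groups, controls included, had received the corticosterone synthesis blocker metyrapone, 150 mg/kg at 12 h before and 100 mg/kg immediately before the stress, and had been bled from the orbital sinus after the second dose. Each group had 2 arrays (12 in all), numbered as technical replicates of pooled RNA, so that errors between them do not measure the spread between mice. The strain, age and sex of the mice, the number of mice in a pool and the extent of the deletion are not given in the sources used here. For the knockout control and knockout 3 h arrays 1 label field names death at 1 h after restraint, and the titles, which give control and 3 h, were followed.

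Corticotrope cells of the anterior pituitary make ACTH, which drives the adrenal cortex to release corticosterone. CRH acts on them through CRHR1, which raises cAMP, and vasopressin acts through the V1b receptor (Avpr1b), which raises inositol phosphates and calcium. Corticosterone feeds back through the glucocorticoid receptor (Nr3c1) and the mineralocorticoid receptor (Nr3c2). The enzyme 11β-HSD1 (Hsd11b1) regenerates corticosterone from its inert 11-keto form inside cells and 11β-HSD2 (Hsd11b2) does the reverse. The secreted CRH-binding protein (Crhbp) holds CRH and urocortin away from their receptors, and CRHR2 (Crhr2) is the receptor that urocortin 2 (Ucn2) prefers.

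The arrays carried the markers of their labelled tissue. Of 12 anterior pituitary marker genes 9 were measured, and Pomc, Gh, Prl, Tshb, Lhb, Fshb, Cga and Tbx19 were each detected on all 12 arrays. A probe was called detected at a detection p-value under 0.01, the p-value being that of its signal against the negative control beads of the same array. Between 6119 and 13506 probes were detected per array. The lowest number belonged to replicate 2 of the knockout 3 h group, which correlated with its partner array at r = 0.909 across probes, against 0.970 to 0.983 in the other 5 groups, and the next lowest array had 9212. Replicate 1 of every group lay on slide 1 and replicate 2 on slide 2. The median raw intensity was 97.1 to 118.5 on slide 1 and 137 to 255 on slide 2.

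The promoter sequences of 3 of the genes are shown, because Hsd11b1 was the only one of these genes detected on all 12 arrays, Crhr1 was the targeted gene, and the Crhbp signal of the knockout 1 h arrays stood apart from that of the other groups. They come from RefSeq (GRCm38.p6), run 5′ to 3′ on the gene's strand and cover 250 bases before and 50 after the annotated start. RefSeq sequences were matched for 5 of the 9 genes. Capitals mark a cAMP response element half-site (TGACG, here read as CGTCA because it lies on the other strand) and a TATA box (TATAAA).
Hsd11b1 chr1:193242311-193242610 (minus strand): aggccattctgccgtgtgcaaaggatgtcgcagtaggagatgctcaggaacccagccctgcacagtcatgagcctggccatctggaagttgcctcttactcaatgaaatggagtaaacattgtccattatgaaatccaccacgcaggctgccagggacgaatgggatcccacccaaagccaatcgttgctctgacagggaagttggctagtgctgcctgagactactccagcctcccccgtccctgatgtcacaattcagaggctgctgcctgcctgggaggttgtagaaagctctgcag
Crhr1 chr11:104132531-104132830 (plus strand): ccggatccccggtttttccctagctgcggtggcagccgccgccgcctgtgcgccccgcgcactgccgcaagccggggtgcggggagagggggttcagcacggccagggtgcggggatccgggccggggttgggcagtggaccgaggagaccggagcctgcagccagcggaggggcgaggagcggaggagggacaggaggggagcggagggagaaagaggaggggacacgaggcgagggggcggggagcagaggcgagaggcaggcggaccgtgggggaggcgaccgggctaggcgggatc
Crhbp chr13:95444782-95445081 (minus strand): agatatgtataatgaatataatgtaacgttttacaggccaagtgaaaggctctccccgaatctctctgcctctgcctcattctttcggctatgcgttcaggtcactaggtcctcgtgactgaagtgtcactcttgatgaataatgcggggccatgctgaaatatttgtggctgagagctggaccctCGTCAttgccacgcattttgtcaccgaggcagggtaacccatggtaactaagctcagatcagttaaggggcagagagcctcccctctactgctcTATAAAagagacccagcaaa
Both strands were searched for TGACGTCA (cAMP response element), TGACG (its half-site, which the full element contains), the full glucocorticoid response element, AGAACA (its half-site, which the full element contains), AAAGGTCA (NR4A monomer site), TATAAA and CANNTG (E-box). Among 32851 RefSeq promoters of the same length 20.8% held TGACG, 1.79% TGACGTCA, 19.0% AGAACA, 0.00913% the full glucocorticoid response element, 1.51% AAAGGTCA, 13.6% TATAAA and 72.3% CANNTG. The Crhbp window held 1 TGACG match, starting 64 bases before the annotated start, 1 TATAAA match starting 30 bases after it, and an E-box. The Hsd11b1 window held 1 E-box and none of the other motifs, and the Crhr1 window, with 75% G and C against a median of 52.7%, held none of the 7. Such matches describe the letters in these windows and are not binding sites.

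Most probes of these genes gave signals close to the negative controls, as most probes on the arrays did. Of 156 values (13 probes on 12 arrays) 36 were detected, a share within the 13.3% to 29.3% of all probes detected per array. Outside the 2 Hsd11b1 probes, 12 of 132 values were detected, and 7 probes were detected on no array. The filter for testing, detection on at least 2 of the 12 arrays, was passed by 5 member probes of 3 genes and by 14405 probes in all. The 5 were both Hsd11b1 probes (12 arrays each), Avpr1b probe 100510563 (5 arrays), Crhr1 probe 5390647 (4 arrays) and Crhr1 probe 450161 (2 arrays). A value averaged between 23 and 64 beads, with a standard error over beads of 3.06% to 9.01% of the signal on slide 1 and 3.87% to 15.2% on slide 2.

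**Figure D1:**
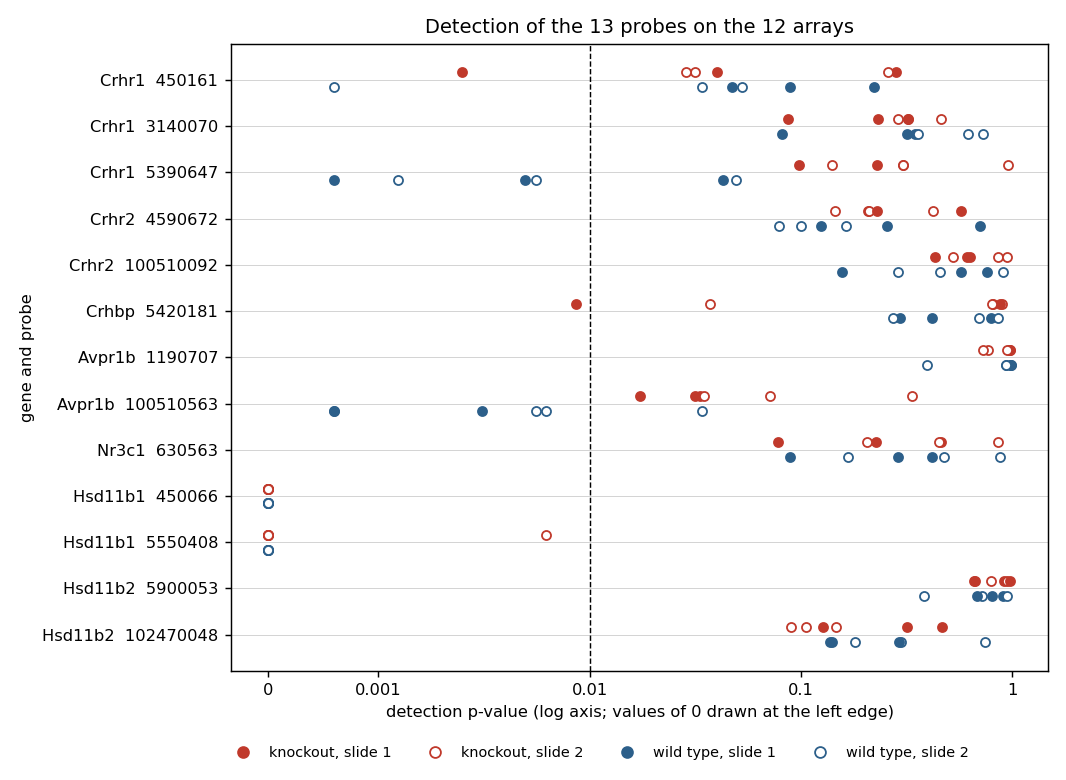
Detection p-value (log axis, values of 0 at the left edge) of each member probe on each array, knockout in red above wild type in blue, filled points for slide 1 and open points for slide 2; the dashed line is the 0.01 limit. Both Hsd11b1 probes lie left of the line on all 12 arrays, Crhr1 probe 5390647 and Avpr1b probe 100510563 do so on wild-type arrays alone, and Crhbp does so on 1 knockout 1 h array.

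The receptor probes and the steroid enzymes without detection are given by their ranges. Crhr2, the second CRH receptor, was measured by probe 4590672 (lowest detection p-value 0.0792) and probe 100510092 (lowest 0.156). Nr3c1, the glucocorticoid receptor, had 1 probe, 630563, whose detection p-values ran between 0.0780 and 0.876 and whose raw signal was 0.507 to 0.875 times the lowest detected signal of its array. Hsd11b2, the inactivating enzyme, had detection p-values of at least 0.383 on probe 5900053 and of at least 0.0903 on probe 102470048. None of these probes was well above background on any array, so these arrays do not show how the glucocorticoid receptor, Crhr2 or Hsd11b2 messages stood between the groups. The mean of the Hsd11b2 probe 102470048 was 5.46 ± 0.06 in knockout and 5.24 ± 0.09 in wild type (log2 intensity, SD, n = 3 pools each, a pool being the mean of a group's 2 arrays), with an exact two-sided permutation p of 0.1, the smallest that 3 against 3 pools can give, and both means lie in the background. The difference was -0.098 on slide 1 and 0.53 on slide 2. Among the tested probes, which do not include this one, 5.07% had all knockout pools above all wild-type pools. Avpr1b probe 1190707, the second of that gene, was also not well above background, with a lowest detection p-value of 0.397.

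Crhr1, the targeted gene, was measured by 3 probes that did not behave alike. Probe 5390647 was detected on 0 of 6 knockout arrays and 4 of 6 wild-type arrays. On slide 1 its raw signal was 97.8, 113 and 114 in knockout control, 1 h and 3 h pituitaries, against 121, 145 and 165 in wild-type control, 1 h and 3 h pituitaries. On slide 2 it was 133, 155 and 306 in knockout control, 1 h and 3 h, against 309, 195 and 258 in wild-type control, 1 h and 3 h. The knockout values were lower within each treatment on slide 1, and on slide 2 the knockout 3 h signal exceeded its wild-type partner's on an array whose lowest detected signal was 472. The detection p-values were at least 0.0978 on the knockout arrays and at most 0.0495 on the wild-type arrays. The share of all probes with such a gap was not counted, and this probe entered the tests through its low wild-type p-values.

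After normalization Crhr1 probe 5390647 was at 5.29 and 5.20 in knockout control, 5.55 and 4.72 in knockout 1 h, and 5.17 and 5.75 in knockout 3 h arrays (log2 intensity, slide 1 then slide 2). In wild type it was at 5.77 and 6.78 in control, 6.17 and 5.81 at 1 h, and 6.32 and 6.31 at 3 h. All 6 knockout arrays (4.72 to 5.75) thus lay below all 6 wild-type arrays (5.77 to 6.78), a pattern that 2.17% of all tested probes had, although the lowest wild-type and the highest knockout array were only narrowly apart. The probe passed the filter through wild-type arrays alone. Pool means were 5.28 ± 0.17 in knockout and 6.19 ± 0.18 in wild type (SD, n = 3 each), a difference of -0.91 ± 0.18 (log2, SE) that did not pass limma's test over pools (adjusted p = 0.141), with an exact two-sided permutation p of 0.1. Since the knockout level is not well above background, the difference is of measured values and has only a bound as a fold. Between the means of wild-type control, with 1 of 2 arrays detected, and knockout control the bound was 1.02-fold, without an error. At 1 h and 3 h no bound above 1 was reached. Without replicate 2 of the knockout 3 h group the difference over pools was -1.01. With each array centred on its median in place of quantile normalization it was -1.02 and passed (limma adjusted p = 0.0158). In that setting 404 of 14405 probes passed over pools, against 13 with quantile normalization. Without the detection filter the limma adjusted p was 0.306. Over all its alternative settings the adjusted p lay between 0.0158 and 0.510.

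The genotype difference of probe 5390647 was of similar size in each treatment. It was -1.03 ± 0.37 in controls (adjusted p = 0.195), -0.85 ± 0.37 at 1 h (adjusted p = 0.316) and -0.86 ± 0.37 at 3 h (adjusted p = 0.276) by limma, and was negative on both slides each time. Between slides the size was uneven, with -0.48 on slide 1 and -1.57 on slide 2 in controls. The interaction terms, which test whether stress acted differently by genotype, were 0.17 ± 0.52 at 1 h (adjusted p = 0.955) and 0.17 ± 0.52 at 3 h (adjusted p = 0.892). Stress itself gave differences of -0.11 ± 0.37 at 1 h and 0.21 ± 0.37 at 3 h in knockout, and of -0.29 ± 0.37 at 1 h and 0.04 ± 0.37 at 3 h in wild type, each smaller than its standard error.

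The other Crhr1 probes did not separate the genotypes. Probe 450161 was detected on replicate 1 of the knockout control and replicate 2 of the wild-type control, and its pool means were 5.84 ± 0.34 in knockout and 5.85 ± 0.32 in wild type (log2 intensity, SD, n = 3 each). The difference was -0.0031 ± 0.18 (SE; limma adjusted p = 0.997; exact permutation p = 1). Probe 3140070 was detected on no array, with pool means of 5.26 ± 0.13 in knockout and 5.14 ± 0.08 in wild type. The position of the 3 probes with respect to the deletion is unknown here, so that a probe outside it would check nothing.

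Avpr1b, the vasopressin V1b receptor of corticotropes, was detected by probe 100510563 on 0 of 6 knockout arrays and 5 of 6 wild-type arrays, and so passed the filter through wild-type arrays alone. On slide 1 its raw signal was 116, 128 and 140.5 in knockout control, 1 h and 3 h, against 144, 159 and 173 in wild-type control, 1 h and 3 h. On slide 2 it was 171, 275 and 253 in knockout control, 1 h and 3 h, against 279.6, 227 and 237 in wild-type control, 1 h and 3 h. On slide 1 the detection p-values were at least 0.0173 in knockout and at most 0.00309 in wild type. On slide 2 they nearly met, at least 0.0347 in knockout and at most 0.0340 in wild type. The raw signal of slide 2 was higher in knockout than in wild type at 1 h and 3 h. How many of all probes were separated in this way was not counted.

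On the normalized scale Avpr1b probe 100510563 was at 5.90 and 6.05 in knockout control, 5.997 and 5.89 in knockout 1 h, and 5.82 and 5.26 in knockout 3 h arrays (log2 intensity, slide 1 then slide 2). In wild type it was at 6.33 and 6.43 in control, 6.46 and 6.35 at 1 h, and 6.44 and 5.98 at 3 h. The 3 knockout pools lay below the 3 wild-type pools, as 10.3% of all tested probes did, while single arrays overlapped through the slide 2 array of wild-type 3 h. Pool means were 5.82 ± 0.24 in knockout and 6.33 ± 0.10 in wild type (SD, n = 3 each), a difference of -0.51 ± 0.18 (SE) that did not pass (limma adjusted p = 0.356; exact two-sided permutation p = 0.1). By treatment the difference was -0.40 ± 0.23 in controls, -0.46 ± 0.23 at 1 h and -0.67 ± 0.23 at 3 h (limma adjusted p = 0.403, 0.377 and 0.179), with both slides negative each time. As a fold only the control comparison gave a bound above 1. Between the means of wild-type control and knockout control it was 1.09-fold, without an error.

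No stress difference of Avpr1b passed the test, the values being -0.04 ± 0.23 at 1 h and -0.44 ± 0.23 at 3 h in knockout, and 0.03 ± 0.23 at 1 h and -0.17 ± 0.23 at 3 h in wild type (log2, SE; lowest limma adjusted p = 0.238). The knockout 3 h value was -0.08 on slide 1 and -0.80 on slide 2, where replicate 2 of that group is the array with the fewest detected probes. Without replicate 1 of knockout 3 h the difference was -0.72 against knockout control and -0.96 against wild-type 3 h. Those values rest on replicate 2 alone, where the probe's signal was 0.535 times the lowest detected one. Without replicate 2 the difference from wild-type 3 h was -0.39. Over all alternative settings the adjusted p lay between 0.0422 and 0.719 against knockout control and between 0.0193 and 0.672 against wild-type 3 h.

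**Figure D2:**
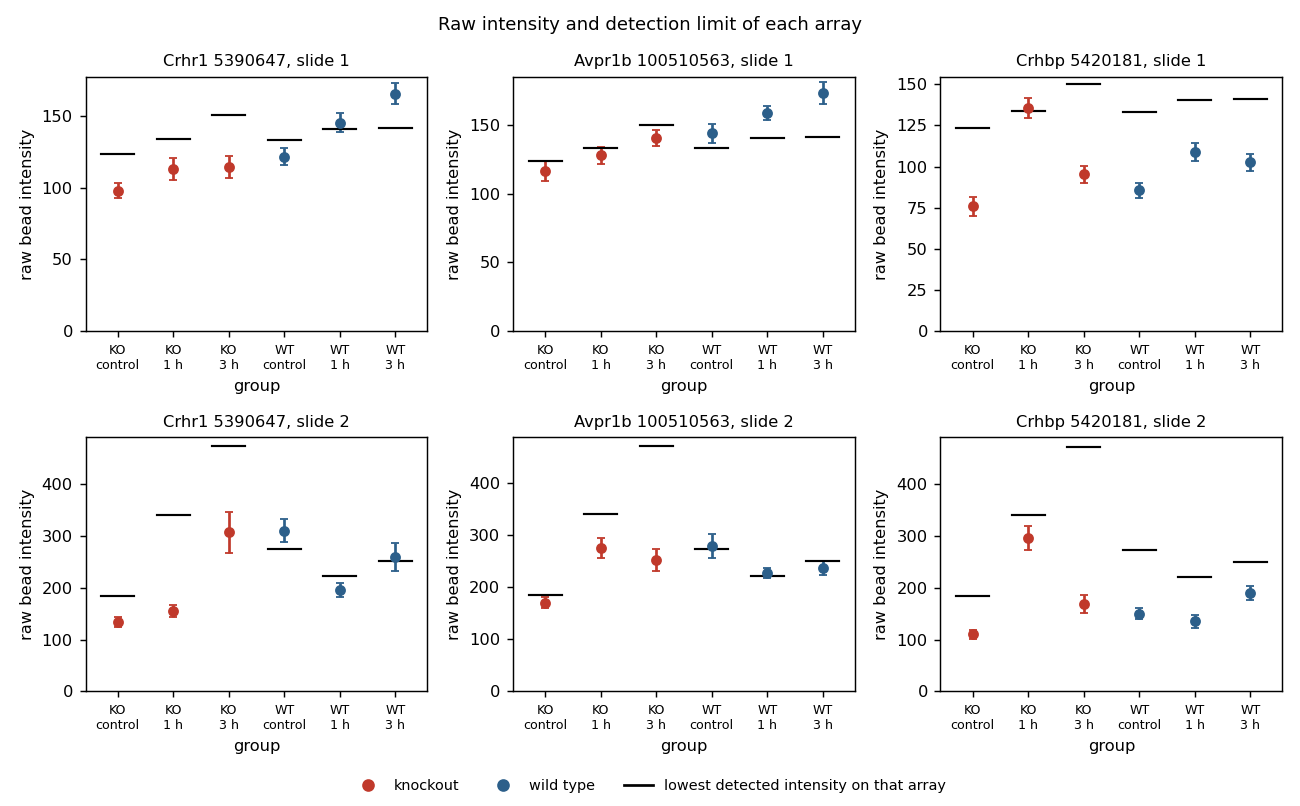
Raw bead intensity of Crhr1 probe 5390647, Avpr1b probe 100510563 and Crhbp probe 5420181 by group, slide 1 above and slide 2 below (linear axes that differ between panels); bars are standard errors over the beads of 1 array and black lines the lowest detected intensity of that array. Knockout points of Crhr1 and Avpr1b all lie below their array's line, while 4 of 6 and 5 of 6 wild-type points reach it, and the Crhbp point reaches it on 1 knockout 1 h array.

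Markers of corticotropes were set beside these receptor differences. Pomc, the ACTH precursor, differed by -0.14 ± 0.19 between knockout and wild-type pools, Tbx19, the corticotrope and melanotrope lineage factor, by -0.17 ± 0.22, and Neurod1, a corticotrope transcription factor, by 0.57 ± 0.19 (log2, SE, none past the threshold, lowest limma adjusted p = 0.328). In controls alone the differences were -0.43 ± 0.15 for Pomc, -0.68 ± 0.23 for Tbx19 and 0.40 ± 0.36 for Neurod1 (adjusted p = 0.175, 0.175 and 0.613), beside -0.40 for Avpr1b. Pomc lies at the top of the intensity range, where quantile normalization sets a value by its rank, and its fitted difference was the same at 1 h as at 3 h in each genotype, so its values are coarse. Summed over these 3 of 4 marker genes outside the members, the normalized intensity was 40022 to 49903 on knockout arrays and 49566 to 58660 on wild-type arrays, a sum that Pomc dominates and that therefore does not measure corticotrope content. Single markers of other cells differed by genotype too. In controls Sox9, a stem cell factor, rose by 1.54 ± 0.25 and the globin gene Hbb-b2 by 1.78 ± 0.25 (adjusted p = 0.0234 and 0.0160). Of the same lists Sox2 differed by 0.18, Aldh1a1 by -0.29, Hba-a1 by 0.17 and Alas2 by 0.46, none past the threshold. Fshb, the follicle-stimulating hormone subunit, differed by 1.22 ± 0.28 over pools (adjusted p = 0.166), beside 0.46 for Lhb and 0.09 for Gnrhr. In such bulk RNA fewer corticotropes and less receptor RNA per corticotrope cannot be told apart, and the part of cell number and composition in the receptor values was not tested.

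Crhbp, the CRH-binding protein, had 1 probe, 5420181, detected on 1 array (knockout 1 h, replicate 1), so it failed the filter. On slide 1 its raw signal was 75.8, 136 and 95.3 in knockout control, 1 h and 3 h, against 85.6, 109 and 103 in wild-type control, 1 h and 3 h. On slide 2 it was 110.0, 296 and 169 in knockout control, 1 h and 3 h, against 150.2, 135 and 190.1 in wild-type control, 1 h and 3 h. The knockout 1 h array was the highest of its slide both times, with detection p-values of 0.00866 and 0.0371, while on the other 10 arrays the p-value was 0.274 to 0.897.

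Normalized, the Crhbp probe was at 6.21 and 6.17 on the knockout 1 h arrays and between 4.80 and 5.22 on the other 10 (log2 intensity). Both knockout 1 h arrays lay above all 10 others for 1.47% of 46133 probes. Group means were 4.82 ± 0.03, 6.19 ± 0.03 and 4.82 ± 0.03 in knockout control, 1 h and 3 h, and 4.84 ± 0.03, 5.05 ± 0.21 and 5.15 ± 0.11 in wild-type control, 1 h and 3 h (SD, n = 2 arrays each). The knockout 1 h level stood above the next in order, wild-type 3 h, by more than these spreads, and the remaining 5 levels followed within 0.33 of each other.

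With the filter lifted, limma's fit over 46133 probes placed the Crhbp probe past the threshold in 2 comparisons. Knockout 1 h exceeded knockout control by 1.37 ± 0.14 (log2, SE, n = 2 arrays each, adjusted p = 0.0148; 1.41 on slide 1 and 1.32 on slide 2), where 0.0347% of probes were called higher. It exceeded wild-type 1 h by 1.14 ± 0.14 (adjusted p = 0.0318; 1.02 on slide 1 and 1.27 on slide 2), where 0.0303% were called higher. Because the lower groups were not well above background, the second difference has only a bound as a fold. Between the means this bound was 1.02-fold, without an error and with 1 of 2 knockout 1 h arrays detected. For the first difference no bound above 1 was reached. The difference between the genotypes' 1 h responses was 1.16 ± 0.20 and did not pass (adjusted p = 0.316), so a knockout-specific response was not shown. At 3 h knockout differed from its control by -0.0067 ± 0.14.

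Both Crhbp calls depended on settings. There were 21 alternative settings, the 12 omissions of 1 array included. The call against knockout control was lost in 6 of them and the call against wild-type 1 h in 14. Against knockout control the call was lost in 3 of 12 omissions of 1 array (replicate 2 of knockout 1 h or either knockout control array), with adjusted p between 0.0122 and 0.226 over the 12. Against wild-type 1 h it was lost in 9 of 12, with adjusted p between 0.0205 and 0.386, and with the replicate block (adjusted p = 0.0504). Gonadotrope markers (3 of 4 measured: Lhb, Fshb and Gnrhr, each detected on 12 arrays) summed to 8532 to 10314 on knockout 1 h arrays and 11759 to 12584.5 on knockout control arrays. In that comparison Lhb differed by 0.34 ± 0.28, Fshb by -1.30 ± 0.63 and Gnrhr by -0.48 ± 0.22 (log2, SE), none past the threshold. The sum mixes opposite directions and does not measure gonadotrope content. Hypothalamic neuron markers (2 of 4 measured, Oxt and Snap25) summed to 3956 to 4564 on knockout 1 h arrays and 4468 to 4655 on knockout control arrays, with Crh detected on no array. Singly, Oxt differed by 0.04 ± 0.21 and Snap25 by -0.12 ± 0.16 between these groups. Between knockout 1 h and wild-type 1 h Ttr, listed as a liver marker, fell by 1.15 ± 0.20 (adjusted p = 0.0395). Apoa1 of the same list differed by 0.0024 ± 0.32 there. The part of these cell types in the Crhbp values was not tested.

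**Figure D3:**
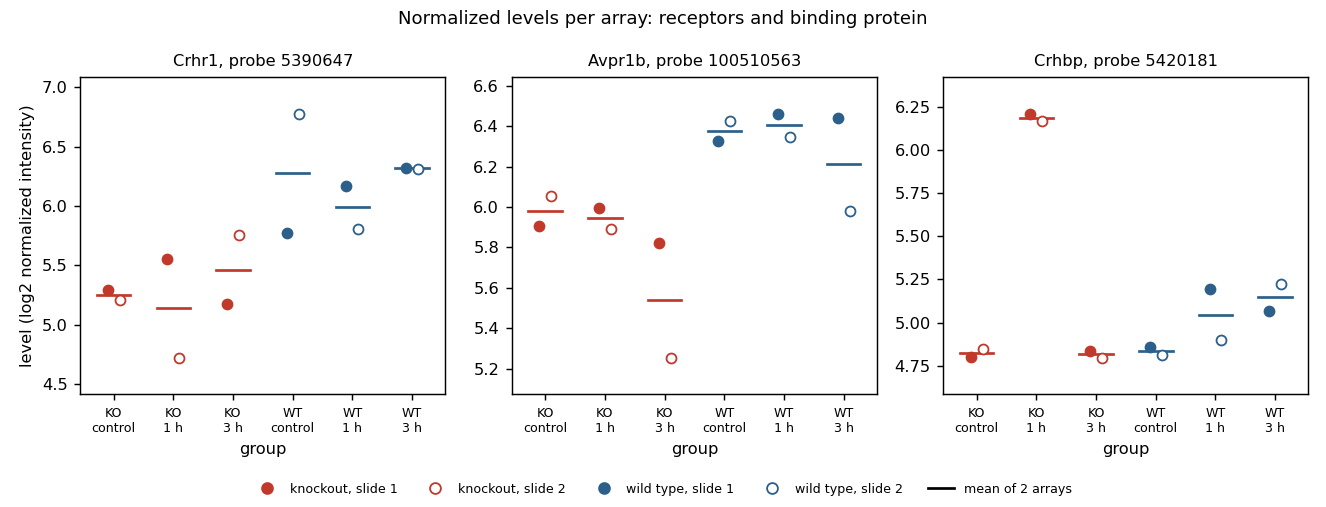
Normalized level (log2 intensity) of Crhr1 probe 5390647, Avpr1b probe 100510563 and Crhbp probe 5420181 on each array by group, filled points for slide 1, open points for slide 2, bars for the mean of 2 arrays; the axes differ and do not start at 0. Knockout arrays of Crhr1 lie at 4.72 to 5.75 and wild-type arrays at 5.77 to 6.78, and Crhbp stands at 6.17 and 6.21 in knockout 1 h against 4.80 to 5.22 elsewhere.

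Hsd11b1, which regenerates corticosterone, was the only member well above background throughout. Probe 450066 had a detection p-value of 0 on every array and a raw signal 1.62 to 3.24 times the lowest detected one. On slide 1 the raw signal was 311, 316 and 393 in knockout control, 1 h and 3 h, against 356, 373 and 458 in wild-type control, 1 h and 3 h. On slide 2 it was 415, 693 and 766 in knockout control, 1 h and 3 h, against 624, 615 and 782 in wild-type control, 1 h and 3 h. The 3 h array was the highest of its genotype on both slides before normalization. Knockout 3 h arrays also had the highest median raw intensity over all probes of their genotype on both slides (118.5 and 255). Wild-type 3 h arrays did not (112 and 193).

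The normalized levels of probe 450066 were 8.42 ± 0.02, 8.37 ± 0.17 and 8.69 ± 0.35 in knockout control, 1 h and 3 h, and 8.39 ± 0.06, 8.57 ± 0.12 and 8.75 ± 0.33 in wild-type control, 1 h and 3 h (log2 intensity, SD, n = 2 arrays each). In ascending order the groups ran knockout 1 h, wild-type control, knockout control, wild-type 1 h, knockout 3 h and wild-type 3 h, and neighbours in that order differed by less than the larger of their SDs, except between knockout control and wild-type 1 h, a pair that was not tested. At 3 h the difference from control was 0.28 ± 0.22 in knockout and 0.37 ± 0.22 in wild type (SE, limma adjusted p = 0.446 and 0.565), and most of it came from slide 2 (0.52 in knockout and 0.56 in wild type, against 0.04 and 0.17 on slide 1). Between genotypes the pools differed by -0.08 ± 0.18 (adjusted p = 0.921).

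The second Hsd11b1 probe, 5550408, gave another order. Its raw signal on slide 1 was 261, 252 and 297 in knockout control, 1 h and 3 h, against 275, 281 and 334 in wild-type control, 1 h and 3 h. On slide 2 it was 336, 579.6 and 497 in knockout control, 1 h and 3 h, against 352, 372 and 493 in wild-type control, 1 h and 3 h. Normalized levels were 8.04 ± 0.03, 7.97 ± 0.21 and 7.81 ± 0.04 in knockout control, 1 h and 3 h, and 7.50 ± 0.50, 7.78 ± 0.19 and 7.99 ± 0.12 in wild-type control, 1 h and 3 h (log2 intensity, SD, n = 2 arrays each). The wide spread of the wild-type control came from arrays at 7.85 on slide 1 and 7.14 on slide 2. The raw signal of probe 5550408 was 1.05 to 2.36 times the lowest detected one. It came near that limit on slide 2, at 1.05 in knockout 3 h and 1.28 in wild-type control.

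By limma, probe 5550408 differed between knockout and wild-type controls by 0.55 ± 0.24 (SE, adjusted p = 0.276), between 3 h and control by -0.23 ± 0.24 in knockout and 0.49 ± 0.24 in wild type (adjusted p = 0.558 and 0.480), and in its 3 h response between genotypes by -0.72 ± 0.34 (adjusted p = 0.320). The last value was -0.28 on slide 1 and -1.17 on slide 2. Over pools the genotypes differed by 0.19 ± 0.21 (adjusted p = 0.811). The 2 Hsd11b1 probes correlated at r = 0.282 over the 12 arrays, after each slide's mean was removed, so the 2 probes did not follow each other closely.

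**Figure D4:**
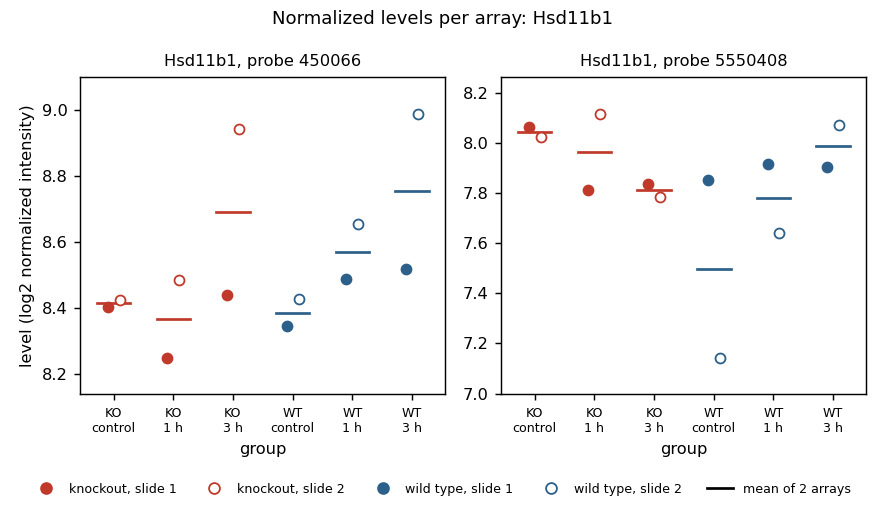
Normalized level (log2 intensity) of the 2 Hsd11b1 probes on each array by group, filled points for slide 1, open points for slide 2, bars for the mean of 2 arrays; the axes differ and do not start at 0. Probe 450066 is highest at 3 h on the slide 2 arrays of both genotypes (8.94 in knockout and 8.99 in wild type), and probe 5550408 has its lowest array, 7.14, in wild-type control.

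Probes with the patterns most like Hsd11b1 were sought among 7883 singly annotated probes of other genes detected on at least 9 arrays, by Pearson's r of slide-centred log2 levels over the 12 arrays, which share slides and pools. For probe 450066 these were Ldah (r = 0.918), Marchf7 (r = 0.904) and Brix1 (r = 0.895). For probe 5550408 they were Egfl7 (r = 0.945), Alk (r = 0.887) and Nlrc3 (r = 0.861). The 2 probes shared none of these genes. These r values were picked as the highest among 7883, and whether they exceed what unrelated probes reach was not tested.

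No member probe passed limma's test in any comparison under the detection filter. Over 5 probes and 10 comparisons 0 of 50 tests were called at an adjusted p under 0.05 and at least 1.5-fold, and the lowest adjusted p was 0.141. An unadjusted p under 0.05 was found in 7 tests, all of knockout against wild type. There 11.2% to 17.8% of all tested probes had one. Of the 7, 4 were of Crhr1 probe 5390647 and 2 of Avpr1b, probes that passed the filter through wild-type arrays alone, and 1 was of Hsd11b1 probe 5550408. Of all 14405 probes 0.16% were called in knockout 1 h against knockout control, 8.71% in knockout 3 h against knockout control, 0.0625% in wild-type 1 h and 0.167% in wild-type 3 h against wild-type control. Between genotypes 1.69% were called in controls, 0.826% at 1 h, 1.35% at 3 h and 0.0902% over pools, and for the interaction 0.0555% at 1 h and 0.146% at 3 h. With shares this low, 0 of 5 is near what the whole array gave, including in the comparison with 8.71%.

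**Figure D5:**
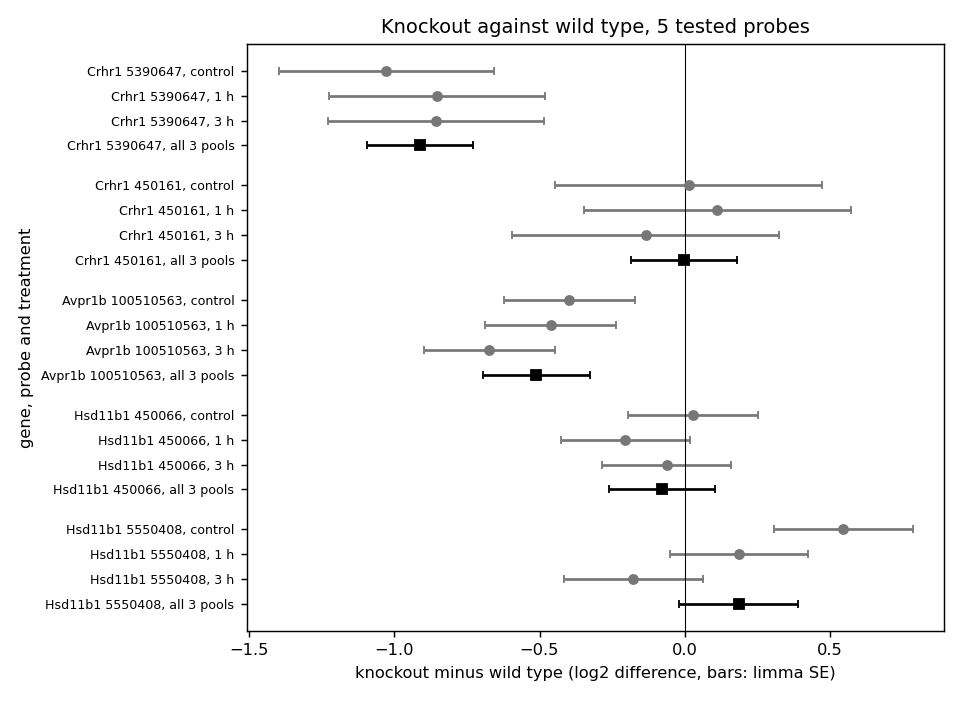
Knockout minus wild-type difference (log2) of the 5 tested probes in control, 1 h and 3 h pituitaries (grey points) and over all 3 pools (black squares), bars being limma standard errors. Crhr1 probe 5390647 (-0.91 over pools) and Avpr1b (-0.51) lie left of 0 in every treatment, and Crhr1 probe 450161 and both Hsd11b1 probes have points on both sides of 0.

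Other ligands and receptors of the axis were mostly out of the arrays' range. Of 12 listed, only Oxt, the neurohypophysial peptide oxytocin, was tested. It differed at 3 h from control by -0.37 ± 0.21 in knockout and 0.28 ± 0.21 in wild type (log2, SE, limma adjusted p = 0.286 and 0.649). Crh, the main hypothalamic ligand of CRHR1, was not well above background on any array.

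Genes that carry the signal of CRHR1 inside the cell gave 2 calls, both in knockout 3 h against knockout control. Of 20 listed 15 were tested, and 1 rose and 1 fell. Gnas, the stimulatory G protein subunit, rose by 0.72 ± 0.17 (log2, SE, limma adjusted p = 0.0376), and Prkaca, a catalytic subunit of protein kinase A, fell by 0.99 ± 0.23 (adjusted p = 0.0336). In wild type at 3 h Gnas differed by -0.01 ± 0.17 and Prkaca by 0.24 ± 0.23 from control, and the interaction did not pass for either (adjusted p = 0.200 and 0.131). The median difference of the 15 genes in knockout 3 h was 0.23, beside -0.11 over all tested probes, of which 3.29% were called higher and 5.42% lower.

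Among vasopressin receptor transduction genes 7 of 12 were tested and 0 passed, in any of the 10 comparisons. By 3 h against control the genes with the largest values were Gnaq, the G protein subunit that couples to V1b, with 0.62 ± 0.20 in knockout 3 h against control and -0.64 ± 0.20 in wild-type 3 h against control (log2, SE, limma adjusted p = 0.0823 and 0.283), and Prkcd, a protein kinase C, with -0.80 ± 0.34 in knockout and 0.21 ± 0.34 in wild type. In the other comparisons Gnaq differed by 0.93 ± 0.20 between knockout 3 h and wild-type 3 h (adjusted p = 0.0620) and by 1.26 in the 3 h interaction (adjusted p = 0.0941). Of 17 steroid receptor chaperones and coregulators 13 were tested and 1 passed. Nrip1, a corepressor of nuclear receptors, rose in knockout 3 h by 1.28 ± 0.34 (adjusted p = 0.0471), on a probe detected on 2 arrays, and differed by 0.95 ± 0.34 in wild-type 3 h. Of 12 steroid handling genes 6 were tested and 1 passed, Hsd3b1, a 3β-hydroxysteroid dehydrogenase, which fell in knockout 3 h by 1.02 ± 0.24 (adjusted p = 0.0372; detected on 5 arrays). The medians of the chaperone and steroid lists in knockout 3 h were -0.36 and -0.45.

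The 4 calls on these lists all lay in knockout 3 h against knockout control and were not stable. Without replicate 2 of knockout 3 h the limma adjusted p was 0.0722 for Gnas, 0.118 for Prkaca, 0.0968 for Nrip1 and 0.0756 for Hsd3b1, and each call was also lost without either knockout control array. Of 12 omissions of 1 array 9 ended the Gnas call, 9 the Prkaca call, 8 the Nrip1 call and 9 the Hsd3b1 call, with adjusted p over the omissions of 0.0469 to 0.236, 0.0065 to 0.197, 0.0425 to 0.252 and 0.0460 to 0.238 in that order. In the same comparison Tbx19 rose by 0.98 ± 0.23 (adjusted p = 0.0369), Tshb, the thyrotropin β subunit, fell by 1.14 ± 0.19 (adjusted p = 0.0130), and Pomc differed by 0.31. Single markers of other cells were also called there. The endothelial gene Plvap rose by 1.25 ± 0.20 (adjusted p = 0.0119), while Pecam1 and Cdh5 of its list differed by -0.06 and -0.05. The macrophage gene Lyz2 rose by 1.98 ± 0.43 (adjusted p = 0.0273), while Adgre1 of its list differed by -0.11. Ttr, listed as a liver marker, fell by 0.89 ± 0.20 (adjusted p = 0.0289), while Apoa1 of its list differed by 0.39. The part of cell composition in the 4 calls was not tested.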

How the data were processed

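RNA of mouse pituitaries was pooled, amplified in 1 round and labelled with Cy3, per the labels' protocols. The deposited files hold the raw mean bead intensity and detection p-value of 46147 probes per array, made by the authors with BeadStudio (per the submitters' processing notes, no version) without normalization, per the file headers. A second deposited intensity table of 46133 probes (medians 9.70 to 9.71), normalized by the authors in a way not stated, served as an alternative. Its 14 missing probes were left out of tests.

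Intensities were background-corrected with normexp (limma 3.58.1, R 4.3.3; offset 16, background from the detection p-values), quantile normalized and put on the log2 scale. Probes detected (p under 0.01) on at least 2 of 12 arrays were fitted with lmFit and eBayes, 1 term per group, or on 6 pool means with genotype and treatment. The threshold was a Benjamini-Hochberg adjusted p under 0.05 and at least 1.5-fold. Exact permutation tests used SciPy 1.17.1. In the comparisons of groups, p-values measure the spread between arrays of pools. Where N = 2 in the design text counts pools, that spread includes pools. Over pools, limma's p-value measures how far the 6 pool means depart from additive genotype and treatment effects. The exact permutation test and the SD over a genotype's 3 pools ignore treatment. Those 3 pools are different treatments and not replicates. The number of arrays limits precision. Every probe of the 9 genes is named; of each gene list, genes past the threshold or else those with the greatest 3 h differences. For a listed gene the brightest probe on average stood for it, and symbols came from the array's annotation table (29542 probes with 1 symbol, 11 with several, 16594 with none). A bound sets the bright group's mean against the dim group's, each dim array at the higher of its lowest detected signal and the probe's own. It carries no error, and the bright mean can include an undetected array. The genes and lists were chosen with earlier results of these data known. Same-numbered arrays share a slide and their deviations from group means correlated at -0.15 to 0.46 (8 of 15 pairs over 0.1), so the numbers were not taken to pair pools. Alternatives were the slide as a block, the authors' table, median centring, no filter, array weights, only the compared groups, offset 50, no background correction, array parts normalized separately, single-slide pools and omission of each array.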

Additional observations from a re-analysis of the deposited data

How the results depend on the processing

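For the 5 probes that passed the filter 1050 differences were recomputed over 23 settings, of which 60 changed sign, 0 of those called, and 4 were called in all, 2 of Crhr1 probe 5390647 over pools and 2 of Avpr1b at 3 h. The number of member probes called moved to 1 without the detection filter in knockout 1 h against knockout control and in knockout 1 h against wild-type 1 h (Crhbp in both), and to 1 with median centring over pools (Crhr1 probe 5390647, -1.02). Leaving out 1 array gave 0 to 1 called in knockout 3 h against knockout control, 0 to 1 in knockout 3 h against wild-type 3 h, and 0 to 1 over pools, and 0 in the other 7 comparisons. The pool difference of Hsd11b1 probe 450066 ranged from -0.16 to 0.0044 over omissions of 1 array, turning positive without replicate 1 of knockout 3 h, and that of probe 5550408 turned to -0.079 with median centring, both within their errors. With the replicate block (the slide, since the numbers were not shown to pair pools) 0 member probes passed in each of 9 comparisons; balanced pool means take no block. The Crhbp difference from knockout control stayed past the threshold under the block (adjusted p = 0.0289, limma) and was 0.85 and not past it in the authors' table, 1.28 with median centring, and unchanged in size but not past it with only the compared groups. The number of all probes called in knockout 3 h against knockout control was 1255, and it was 0 with only the compared groups, 71 with array weights, 135 with median centring, 3925 without replicate 1 of knockout 3 h and 516 without its replicate 2. Over pools it was 13, and 404 with median centring. The causes were not tested. Signal over background is the limit here: 7 of 13 member probes were detected on no array.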
